A study of Mus musculus with 12 samples.

Results

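The transcripts described here come from the mitochondrial genome of mouse macrophages. They were chosen by name, as the genes of the deposited expression table whose symbol starts with mt-, and there were 22 of them among 27013 genes. They comprised 2 ribosomal RNAs, 13 messenger RNAs and 7 transfer RNAs. The RefSeq table of the GRCm38.p6 assembly places 37 genes on the mitochondrial genome, so every mitochondrial protein gene and both ribosomal RNAs were covered, and 15 transfer RNA genes were not analysed here.

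Libraries were made from bone marrow-derived macrophages of C57BL/6 mice, either Ythdf2 conditional knockout (cKO) or wild type (WT). YTHDF2 is a cytoplasmic protein that binds N6-methyladenosine (m6A) in mRNA and promotes decay of the bound transcript. Marrow cells of both genotypes had 7 days in 20 ng/ml M-CSF, followed by 24 h in 100 ng/ml LPS with 20 ng/ml interferon gamma, which gives M1-type macrophages. Polyadenylated RNA in pieces of about 100 nucleotides was sequenced after m6A immunoprecipitation (cKO and WT) and as input (cKO and WT), and RNA bound to YTHDF2 was sequenced with its own input (WT). Each of these 6 groups held 2 libraries, and no source used here says whether a pair came from separate mice. The sources used here give neither the promoter that drives the deletion nor the age of the mice.

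The mitochondrial genome is a small circle that is transcribed on both strands as long precursors. Transfer RNAs lie between most of the other genes, and their excision releases the ribosomal and messenger RNAs. All of the proteins encoded belong to the respiratory chain or the ATP synthase, and they are made on mitochondrial ribosomes. In M1-type macrophages the respiratory chain is known to be damped while glycolysis is raised.

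The authors' deposited table compares the 4 input libraries between the genotypes and gives 1 mean per gene. Neither the labels nor the table say which genotype stands on top of its fold changes. Its means carry 15 digits. Together with the fold changes, these means were enough to recover whole-number read counts in each library for 26995 of the 27013 genes. All 22 mitochondrial genes were among them. The libraries could be told apart only by side, so they are called numerator libraries 1 and 2 and denominator libraries 1 and 2. The recovered genes held 22493098 and 24617306 counts in numerator libraries 1 and 2, against 21019009 and 30415286 in denominator libraries 1 and 2. Ythdf2, the targeted gene, had 2747 and 2060 normalized counts in the numerator libraries, against 1128 and 1112 in the denominator libraries. The authors' deposited table gave it a log2 fold change of 1.10 ± 0.16 (SE; Wald test, adjusted p = 2.06e-09). The macrophage genes Lyz2, Adgre1 and Cd68 were abundant in each library, while markers of neutrophils, fibroblasts, T, B and red blood cells summed to at most 1708 normalized counts a library in any list.

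Numerator library 2 stood apart. Across 10760 tested genes its counts differed from those of the denominator libraries by a chi-square of 72.9 and 72.1 per degree of freedom and from numerator library 1 by 35.2. Numerator library 1 differed from the denominator libraries by 36.9 and 32.4, and these from each other by 11.9, so neither pair was the same library deposited again. Results below are given with each library's value and, where it changes them, without that library.

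The transcripts of the mitochondrial genome were present at very unequal levels. Together they held 0.738% of the summed mean normalized counts in the authors' deposited table. By library they took 1.20% and 0.755% of the recovered counts in numerator libraries 1 and 2, against 0.928% and 0.879% in denominator libraries 1 and 2. These shares rest on a smaller total than the 0.738%. The 18 genes whose counts were not recovered are missing from it, and they held 21.5% of the summed means. Per kilobase of gene, mt-Co1, which encodes a catalytic subunit of cytochrome c oxidase (complex IV), had the highest mean level in the authors' deposited table, at 63861 normalized counts per kb. The small ribosomal RNA mt-Rnr1 (mitochondrial positions 70 to 1024) followed with 38545 per kb and the large ribosomal RNA mt-Rnr2 (positions 1094 to 2675) with 32350 per kb. mt-Cytb, the complex III subunit cytochrome b, came next in the authors' deposited table with 10417 normalized counts per kb.

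The 5 abundant NADH dehydrogenase (complex I) mRNAs beside them were lower. In the authors' deposited table mt-Nd1 had 7326 normalized counts per kb, mt-Nd6 6371, mt-Nd5 6012, mt-Nd2 3482 and mt-Nd4 3479. Only mt-Nd6 of these is read from the light strand, and its human mRNA is known to lack a poly(A) tail. In this poly(A)-selected input the ratio of mt-Nd6 to mt-Nd5 normalized counts was 0.299 and 0.325 in the numerator libraries, against 0.295 and 0.297 in the denominator libraries. The genes mt-Nd5 and mt-Nd6 share 14 bases at their ends, and the sources used here do not say whether the strand of a read was used in counting. Reads of mt-Nd6 and of heavy-strand RNA antisense to it can therefore not be told apart.

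The other 6 mRNAs lie next to each other, from mt-Co2 (start at 7013) to mt-Nd4l (end at 10173), and were far lower. In the authors' deposited table mt-Co2, another catalytic subunit of complex IV, had a mean of 126 normalized counts, and mt-Co3 had 56.0. The ATP synthase mRNAs mt-Atp6 and mt-Atp8 had 37.3 and 4.18, and the complex I mRNAs mt-Nd3 and mt-Nd4l had 1.56 and 1.94. Per kilobase the highest of these 6, mt-Co2, was at 185 and the lowest of the other 7 mRNAs, mt-Nd4, at 3479 in the authors' deposited table, an 18.8-fold gap. The next mRNA upstream, mt-Co1, was 346 times mt-Co2 per kilobase on the same scale. The low stretch was seen in each library: mt-Co2 had 135 and 90.6 normalized counts in the numerator libraries, against 141 and 138 in the denominator libraries.

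Copies of mitochondrial sequence in the nuclear genome could share reads with these genes. RefSeq lists Gm10925 on chromosome 1 (24613971 to 24614651) as a pseudogene with mt-Atp6 among its synonyms and the same length of 681 bases. In the authors' deposited table Gm10925 had a mean of 63.0 normalized counts, or 92.4 per kb, beside 54.7 per kb for mt-Atp6. The features Gm28437, Gm28438, Gm28439, Gm28661 and Gm29216, listed by hand as such copies though no file here annotates them, had means of 11.4 to 179 in the authors' deposited table. Their summed level with Gm10925 was 490 and 378 normalized counts in the numerator libraries, against 505 and 464 in the denominator libraries, and all 6 were lowest in numerator library 2. The sources used here do not say how reads that match several places were counted, and the part of such reads in the low stretch was not tested.

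Transfer RNAs were near the limit of counting. Their genes are 66 to 71 bases long, below the fragment length of about 100 nucleotides. Of the 7, mt-Tp, the proline transfer RNA next to the control region, was the 1 tested gene, with 74 and 64 normalized counts in the numerator libraries, against 61 and 42 in the denominator libraries. The 6 others, mt-Tv, mt-Tq, mt-Tm, mt-Tc, mt-Ts1 and mt-Te, held 0 to 9 reads in any library.

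**Figure D1:**
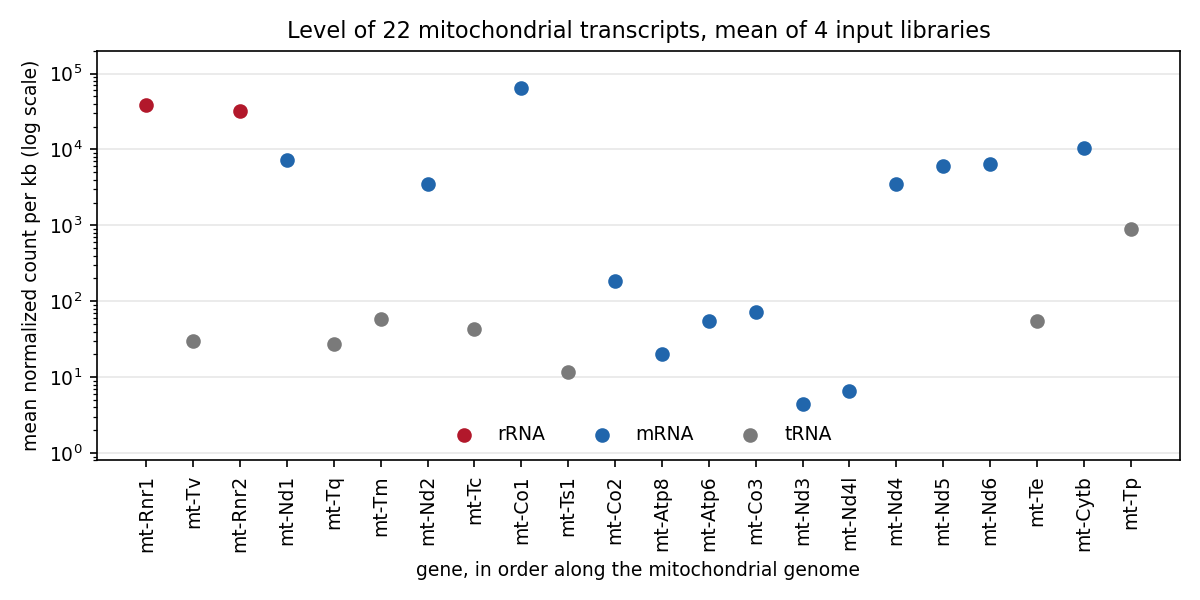
Mean normalized count per kilobase (log axis) of the 22 mitochondrial transcripts over the 4 input libraries, in gene order; each point is 1 gene, coloured by class. The 6 mRNAs from mt-Co2 to mt-Nd4l lie at 4.48 to 185 per kb, below the 3479 to 63861 per kb of the other 7 mRNAs.

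Both ribosomal RNAs were higher in the numerator libraries. mt-Rnr1, the RNA of the small subunit of the mitochondrial ribosome, had 48426 and 37792 normalized counts in the numerator libraries, against 31545 and 29479 in the denominator libraries. mt-Rnr2, the RNA of the large subunit, had 74029 and 49006 in the numerator libraries, against 43569 and 38108 in the denominator libraries. For neither RNA did the sides overlap, and numerator library 1 was the higher of its pair for both. Both numerator libraries lay above both denominator libraries in 23.0% of all genes, and below them in 25.3%. The authors' deposited table gave mt-Rnr1 a log2 fold change of 0.50 ± 0.13 (SE; Wald test, adjusted p = 0.0114) and mt-Rnr2 one of 0.59 ± 0.16 (adjusted p = 0.0178). These were the 2 calls among the 12 mitochondrial genes that the authors' deposited table tested (adjusted p under 0.05), and both were positive. Over all genes tested there, 250 of 10778, or 2.32%, were called, 1.76% with a positive and 0.557% with a negative sign. In bulk RNA, a change in the number of mitochondrial genomes, in RNA per genome and in the cells sampled cannot be told apart.

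The calls of the ribosomal RNAs depended on the test, and the size of their fold changes on the libraries. A limma fit to the recovered counts, added after the data were seen, called 4 of 10760 genes (0.0372%; 1388 at an unadjusted p under 0.05) and gave adjusted p = 0.305 for mt-Rnr1 and 0.358 for mt-Rnr2. Without numerator library 2 the same limma fit gave log2 fold changes of 0.67 (adjusted p = 0.00227) and 0.86 (adjusted p = 0.00103). Without numerator library 1 it gave 0.31 (adjusted p = 0.027) and 0.27 (adjusted p = 0.0822), and without a denominator library no adjusted p was under 0.853 (0.0743% of genes called without denominator library 1, 0.362% without denominator library 2). The sign was positive in each of these fits.

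Other abundant features moved with the ribosomal RNAs. Lars2, the mitochondrial leucyl-tRNA synthetase, had 327690 and 303516 normalized counts in the numerator libraries, against 180861 and 179581 in the denominator libraries. The authors' deposited table put its log2 fold change at 0.81 ± 0.11 (SE; Wald test, adjusted p = 3.46e-11). In the limma fit its adjusted p was 0.247 with all 4 libraries. With any 1 library left out, its log2 fold change in that fit was 0.75 to 0.86. In the same comparison the authors' deposited table called Gm15564 (0.85 ± 0.11), Gm23935 (0.72 ± 0.12) and CT010467.2 (0.45 ± 0.11), and did not call CT010467.1 (0.77 ± 0.37, Wald test, adjusted p = 0.445). These 5 features were set apart after their values were seen, as ones held to carry sequence like cytosolic ribosomal RNA, which no file here annotates. CT010467.1 was the most abundant of them, with a mean of 2333910 normalized counts in the authors' deposited table, and its counts per library were not recovered. The part of leftover ribosomal RNA in the result for mt-Rnr1 and mt-Rnr2 was not tested.

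None of the mitochondrial mRNAs was called in the authors' deposited table; their difference from the ribosomal RNAs was not tested. Of the 9 tested, 8 had a negative and 1 a positive log2 fold change in the authors' deposited table, from −0.42 to 0.01 and with adjusted p from 0.915 to 1.00 by their Wald test. The median over the 12 tested mitochondrial genes was −0.07, beside −0.01 over all 10778 tested genes, of which 48.7% were positive. mt-Co1 had 117668 and 79375 normalized counts in the numerator libraries, against 98305 and 99313 in the denominator libraries. The numerator libraries lay on either side of the denominator pair, and the log2 fold change was −0.00 ± 0.16 (SE) in the authors' deposited table.

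The 6 other abundant mRNAs, of complex I and complex III, were low in numerator library 2 alone. mt-Nd1 had 8358 and 3659 normalized counts in the numerator libraries, against 8502 and 7527 in the denominator libraries. mt-Nd2 had 4587 and 1941 in the numerator libraries, against 4427 and 3501 in the denominator libraries. In both genes numerator library 1 lay close to the denominator libraries and numerator library 2 lay far below all 3.

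The 4 others had the same shape. mt-Nd4 had 5992 and 3057 normalized counts in the numerator libraries, against 5396 and 4731 in the denominator libraries. mt-Nd5 had 14349 and 6854 in the numerator libraries, against 11673 and 10986 in the denominator libraries. For each, numerator library 1 was the highest library and numerator library 2 the lowest.

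The light-strand gene mt-Nd6 had 4294 and 2227 normalized counts in the numerator libraries, against 3443 and 3263 in the denominator libraries. mt-Cytb had 14981 and 7049 in the numerator libraries, against 13452 and 12187 in the denominator libraries. Across these 6 mRNAs numerator library 2 held 0.423 to 0.519 of the normalized count of numerator library 1. The same ratio was 0.675 for mt-Co1, 0.662 for mt-Rnr2 and 0.780 for mt-Rnr1, so the ribosomal RNAs were also lower in numerator library 2 than in numerator library 1. Over all 10760 genes the ratio had a median of 1.01, with a 5th percentile of 0.695, and 0.734% to 1.45% of genes had a lower ratio than the 6 mRNAs. Between the denominator libraries the 6 mRNAs had ratios of 0.791 to 0.948.

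**Figure D2:**
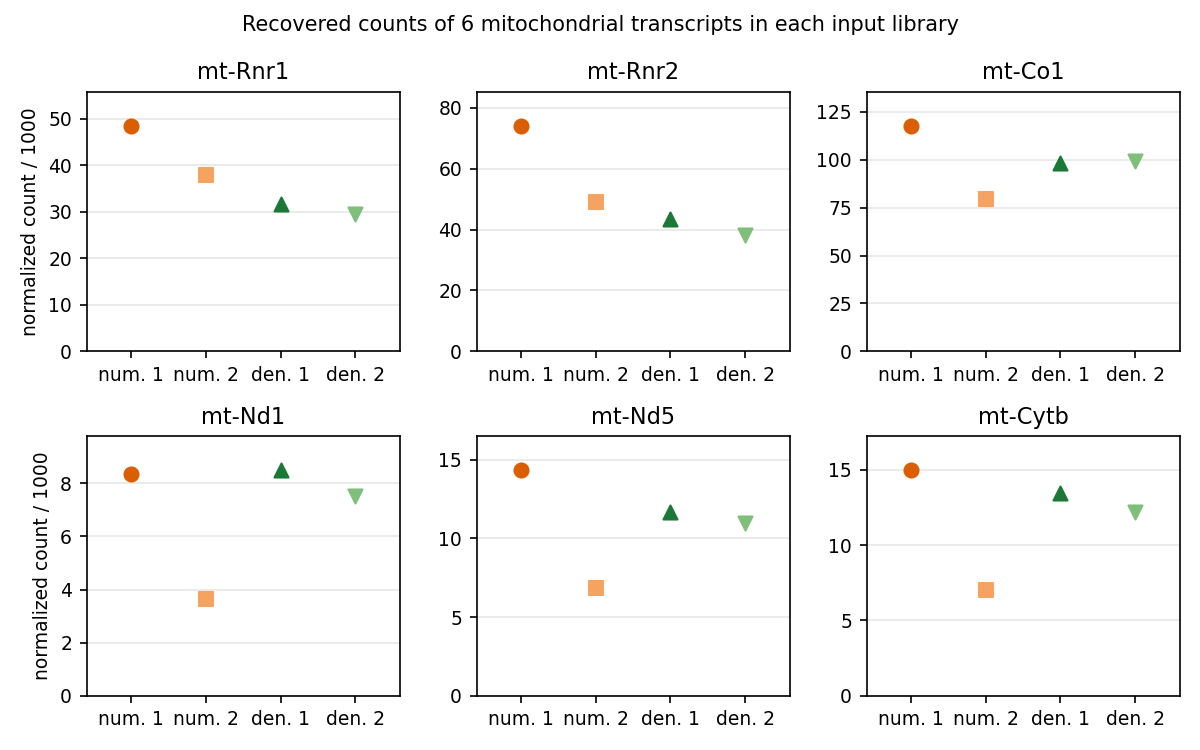
Normalized count (in units of 1000) of 6 mitochondrial transcripts in each input library, numerator libraries 1 and 2 at the left and denominator libraries 1 and 2 at the right; each point is 1 library and every axis starts at 0. Both ribosomal RNAs lie above the denominator libraries in both numerator libraries, while mt-Nd1, mt-Nd5 and mt-Cytb are low in numerator library 2 alone.

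The fold changes of these mRNAs were among the least precise for their level. The authors' deposited table gives the fold changes of the 6 mRNAs standard errors of 0.46 to 0.62 on the log2 scale, where nuclear genes within 2-fold of the same mean count had medians of 0.116 to 0.126. Of those nuclear genes, 99.5% to 99.8% had a lower standard error, depending on the mRNA. A log2 difference of the size called for mt-Rnr1 is of the order of 1 such standard error.

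The sign of the mRNAs turned on the library left out. Without numerator library 2 the log2 ratios of mean normalized counts of the 7 abundant mRNAs were 0.06 to 0.36, and without numerator library 1 they were −1.13 to −0.32. In the limma fit on the recovered counts without numerator library 2, mt-Nd5 (0.34, adjusted p = 0.0434) and mt-Nd6 (0.36, adjusted p = 0.0339) were called positive, among 2.63% of genes. In the fit without numerator library 1, all 7 were called negative, from mt-Nd1 at −1.13 to mt-Co1 at −0.32, among 21.3% of genes. With all 4 libraries that fit called none of them. A side with 1 library was taken to vary like the other side.

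The summed level of the neutrophil markers was low in the same library. Of 8 listed neutrophil markers, 5 had their lowest level in numerator library 2, as did 5 of 7 macrophage markers and 34.5% of all tested genes. Only 2 of the 8, S100a8 and S100a9, were tested in the authors' deposited table, and 0 were called. The others had means there of 0.48 (Elane) to 44.6 (Ngp) normalized counts, so their order among libraries says little. The sum of the neutrophil markers was 859 and 447 normalized counts in the numerator libraries, against 796 and 769 in the denominator libraries. S100a8 had 339 and 187 in the numerator libraries, against 346 and 344 in the denominator libraries. Elane was at 0 in both numerator libraries, Ly6g at 0 in the 3 libraries other than numerator library 2, and Mpo at 0 in denominator library 2. The sum of the macrophage markers was 362089 and 307621 in the numerator libraries, against 555006 and 550899 in the denominator libraries. Most of that gap lay in Lyz2, with 132594 and 82773 in the numerator libraries, against 303626 and 300921 in the denominator libraries. Its log2 fold change was −1.49 ± 0.33 (SE) in the authors' deposited table. Of the 7 macrophage markers, 5 had a negative and 2 a positive log2 fold change there, with Lyz2 and Itgam called negative and Cd68 positive. The 6 fibroblast markers summed to 1692 and 1708 normalized counts in the numerator libraries, against 1245 and 1314 in the denominator libraries. Their sum did not overlap between the sides. Among all genes, 23.0% also lay higher in both numerator libraries and 25.3% lay lower in both. Col1a1 was the 1 of 4 tested fibroblast markers called, at 0.56 ± 0.17 (SE; Wald test, adjusted p = 0.0491) in the authors' deposited table. Of these 4, 3 had a positive and 1 a negative log2 fold change there. The negative was Col3a1, at −0.20 ± 0.27, with 166 and 148 normalized counts in the numerator libraries, against 186 and 175 in the denominator libraries. The part of the cells' makeup in the mitochondrial values was not tested.

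The low mRNAs and mt-Tp gave no call. In the authors' deposited table mt-Co2 had a log2 fold change of −0.31 ± 0.32 (SE), mt-Co3 of 0.01 ± 0.45 and mt-Tp of 0.42 ± 0.44, with adjusted p of 0.911 to 1.00 from their Wald test. The 10 other mitochondrial genes, among them mt-Atp6, mt-Atp8, mt-Nd3 and mt-Nd4l, were too low to be tested. Both numerator libraries lay above both denominator libraries in 3 of the 12 tested genes (mt-Rnr1, mt-Rnr2 and mt-Tp), beside 23.0% of all genes. They lay below in 1 (mt-Co2), beside 25.3%.

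**Figure D3:**
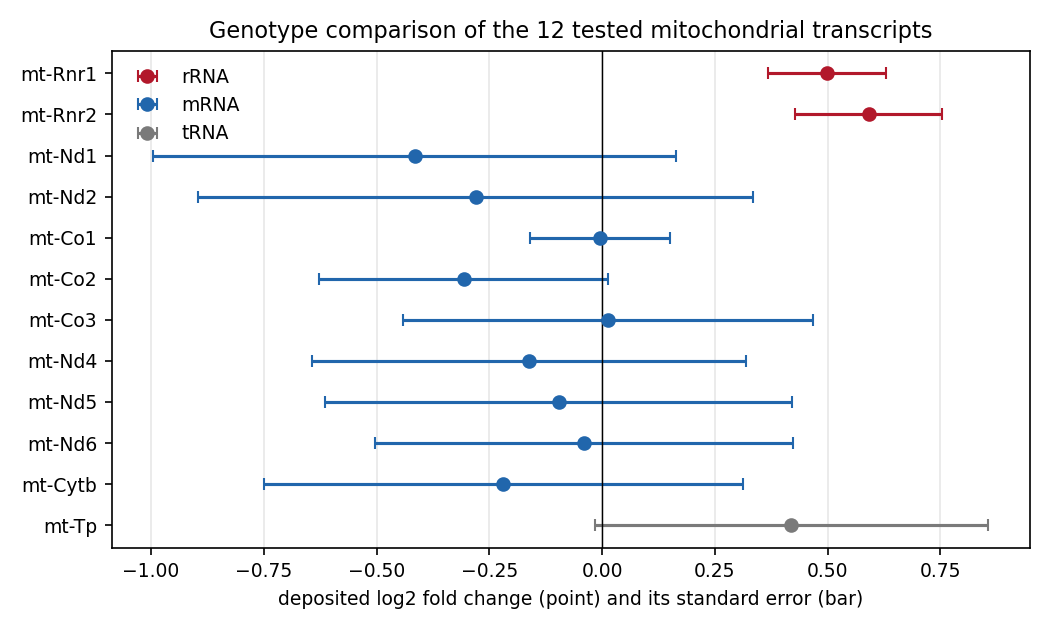
Log2 fold change of the 12 tested mitochondrial transcripts in the authors' deposited table (points), with its standard error (bars), genes from top to bottom in genome order and coloured by class. mt-Rnr1 and mt-Rnr2 lie at 0.50 and 0.59 with short bars, and the bars of the 9 mRNAs and mt-Tp cross 0, the longest being 0.62 for mt-Nd2.

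Ratios within a library do not depend on how libraries are scaled to each other. The summed ribosomal RNAs over the summed mRNAs gave 0.718 and 0.832 in the numerator libraries, against 0.516 and 0.477 in the denominator libraries. The sides did not overlap, and the difference between them was larger than the spread within either. Among the normalized counts of all genes, 23.0% also lay higher in both numerator libraries and 25.3% lay lower in both. The ratio is made from the 2 called RNAs and from mRNAs whose sum was lowest in numerator library 2, so it is not separate evidence for the calls. With 2 libraries a side an exact permutation test cannot reach 0.05, so no p is given. The ratio of mt-Rnr2 to mt-Rnr1 was 1.53 and 1.30 in the numerator libraries, against 1.38 and 1.29 in the denominator libraries, and the sides overlapped. The ratio of mt-Co1 to mt-Cytb was 7.85 and 11.3 in the numerator libraries, against 7.31 and 8.15 in the denominator libraries, with numerator library 2 the highest.

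**Figure D4:**
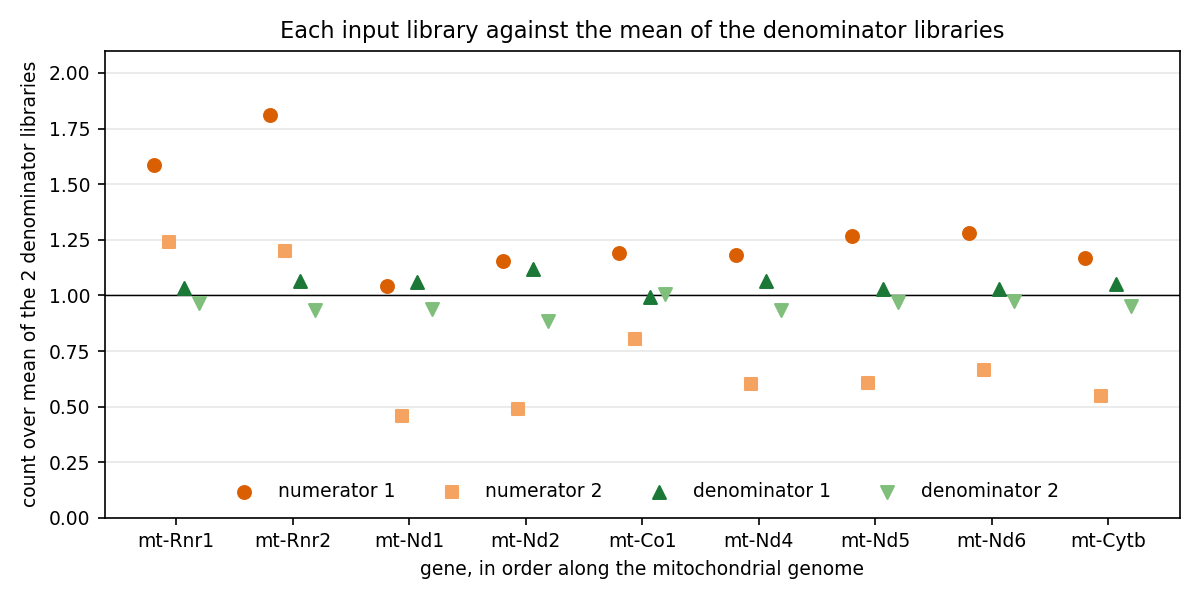
Normalized count of the 9 abundant mitochondrial transcripts in each input library divided by the mean of the 2 denominator libraries (line at 1), numerator libraries drawn left of denominator libraries within each gene; each point is 1 library. Numerator library 1 runs from 1.04 to 1.81 and numerator library 2 from 0.457 to 1.24, with only the ribosomal RNAs above 1 in both.

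The m6A peaks of WT macrophages included 11 regions, of 10290 in all, that the authors' list assigns to mitochondrial symbols. They fall in 8 symbols, of which mt-Ti and mt-Tw are not in the expression table, so 6 of the 22 transcripts had a peak by symbol, or 4 of the 12 tested genes. A peak was found in 19.1% of all genes listed and in 45.4% of all tested genes. The list is 1 for the WT group, with no values per library; it gives no chromosome, height or p, and its file name and the labels name exomePeak2. Positions below are on the mitochondrial genome of mm10, counted from 1.

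The peaks were unevenly placed. mt-Rnr1 carried 2 short peaks near its 3′ end, at 770 to 819 and 845 to 944, while mt-Rnr2 carried none. mt-Nd5 carried 3, at 11742 to 12091, 12517 to 12716 and 12767 to 13565, which together covered 74.0% of the gene. The peak of mt-Cytb, at 14745 to 15288, ran over the last 544 bases of the gene. On the minus strand the peaks of mt-Nd6 (13552 to 14070) and of the glutamate transfer RNA mt-Te (14071 to 14139) each covered the gene from its first to its last base. The peak of mt-Te starts directly where that of mt-Nd6 ends. In the input, mt-Te had only 6 and 1 reads in the numerator libraries, against 4 and 4 in the denominator libraries. Whether the peaks of mt-Nd6 and mt-Te are separate regions was not tested. Peaks of the lengths listed here span many adenosines and do not place a modified base.

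Some symbols and positions differed. The peak named for mt-Nd4l, at 10752 to 11544, lay outside that gene and covered the last 793 bases of mt-Nd4, or 57.5% of it. The peak named for mt-Tw, at 3914 to 5013, covered all 1038 bases of mt-Nd2. The peak named for mt-Ti, at 3651 to 3725, covered 57 bases at the end of mt-Nd1. By position, taking an overlap of at least 1 base on either strand, 8 of the 22 transcripts were under a peak, and these were mt-Rnr1, mt-Nd1, mt-Nd2, mt-Nd4, mt-Nd5, mt-Nd6, mt-Te and mt-Cytb.

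A stretch of 5738 bases, from 5014 to 10751, held no m6A peak. It contains mt-Co1, the gene with the highest level per kilobase, and all 6 of the low mRNAs. Of the 9 abundant transcripts, 7 were under a peak by position and 4 by symbol; mt-Rnr2 and mt-Co1 had none. Nuclear genes within 2-fold of the same mean counts had a peak by symbol in 54.1% to 70.4% of cases. The low mRNAs and transfer RNAs had too few reads for the lack of a peak to be read.

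**Figure D5:**
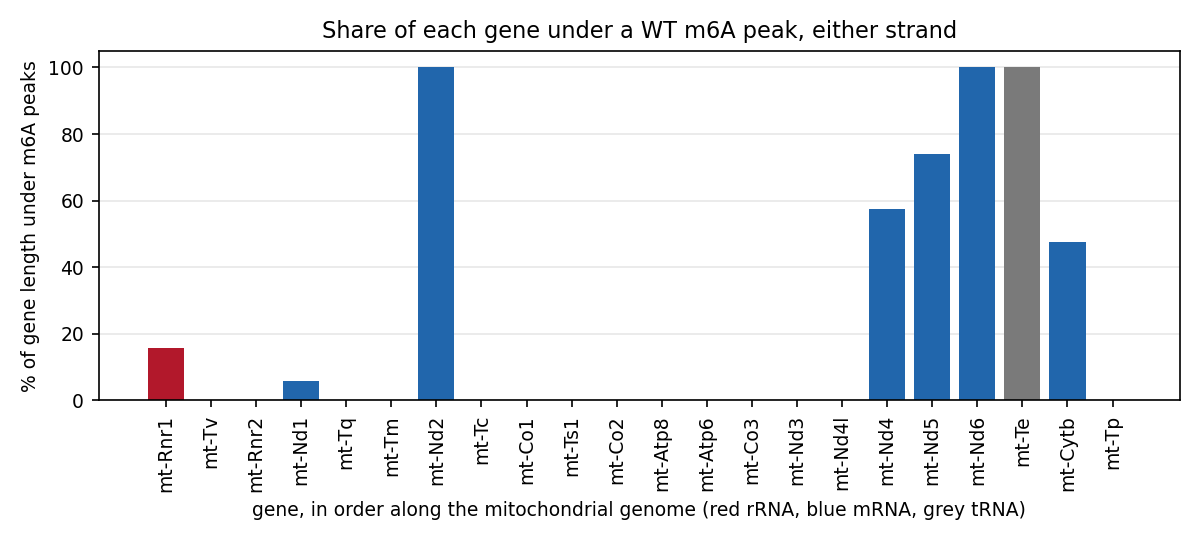
Share of the length of each of the 22 mitochondrial genes under a WT m6A peak on either strand (bars, percent), in genome order. mt-Nd2, mt-Nd6 and mt-Te are covered over 100% of their length and mt-Nd5 over 74.0%, while mt-Co1, mt-Rnr2 and the genes from mt-Co2 to mt-Nd4l have none.

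No mitochondrial transcript had a YTHDF2 peak. The YTHDF2 list of WT macrophages held 17843 distinct peaks on 21 chromosomes, and 0 of them lay on the mitochondrial genome. A YTHDF2 peak was found in 24.9% of all genes listed and in 59.1% of tested genes. For the 9 abundant mitochondrial transcripts, nuclear genes within 2-fold of the same mean count had a YTHDF2 peak in 81.8% to 94.6% of cases. The sources used here do not say whether reads of the mitochondrial genome were kept for this peak calling, so a count of 0 cannot be told apart from removal before the calling. Of the 2 ribosomal RNAs called between genotypes, mt-Rnr1 had m6A peaks and mt-Rnr2 had none, and neither had a YTHDF2 peak.

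Nuclear genes that express the mitochondrial genome were described by 4 lists, 100 of whose genes were tested. Among them 2 were called in the authors' deposited table, both positive, which is near the 2.32% over all tested genes. Of the 100, 34 had a positive and 66 a negative log2 fold change, beside 48.7% positive over all tested genes, and their median was −0.06. Mitochondrial transcription and its nucleoid had 0 called of 14 tested genes and a median of 0.02. DNA replication and nucleotide supply had 1 called of 17 and a median of −0.09. RNA processing, modification and decay had 0 called of 41 and a median of −0.05, and translation factors and synthetases had 1 called of 29 and a median of −0.10. The calls were Lars2, described above, and Cmpk2, an interferon-induced kinase that supplies nucleotides for mitochondrial DNA synthesis.

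Cmpk2 had 56030 and 71761 normalized counts in the numerator libraries, against 41879 and 42510 in the denominator libraries. The authors' deposited table put its log2 fold change at 0.60 ± 0.13 (SE; Wald test, adjusted p = 0.000721). In the limma fit on the recovered counts of all 4 libraries its adjusted p was 0.278. Its log2 fold change in that fit was 0.77 without numerator library 1 and 0.41 without numerator library 2. It was 0.58 without denominator library 1 and 0.60 without denominator library 2. It carried 2 m6A and 3 YTHDF2 peaks.

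The outermost genes of each list by Wald statistic did not pass otherwise. Among the transcription genes, the rRNA methyltransferase Tfb1m was at −0.69 ± 0.40 (SE) and the ribosomal protein Mrpl12 at −0.17 ± 0.15 in the authors' deposited table, and the coactivator Ppargc1b at 0.44 ± 0.32 and the nuclear receptor Esrra at 0.21 ± 0.14. For replication these were the helicase Twnk at −0.31 ± 0.29, the kinase Dguok at −0.25 ± 0.17 and the nuclease Dna2 at 0.05 ± 0.34. For RNA processing they were the nuclease Rexo2 at −0.33 ± 0.15, Hsd17b10, a subunit of mitochondrial ribonuclease P, at 0.43 ± 0.17, and the RNA-binding protein Ptcd1 at 0.18 ± 0.17. For translation they were the initiation factor Mtif3 at 0.25 ± 0.21, the elongation factor Tufm at −0.20 ± 0.14 and the synthetase Cars2 at −0.31 ± 0.20, all as the authors' deposited table gives them. For these 13 genes the authors' deposited table holds adjusted p-values of 0.237 to 0.999 by the Wald test. Tfb1m stands in the lists of transcription and of RNA processing. Of the 100 nuclear genes tested, m6A peaks were listed for 40 and YTHDF2 peaks for 52, beside 45.4% and 59.1% of all tested genes.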

How the data were processed

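Poly(A)-selected input RNA of Ythdf2 cKO and WT macrophages was compared by the authors in a table whose columns are named as DESeq2 names its results, per the file headers. The mean normalized count in it is a signal: per the file headers, the authors divided counts by size factors and averaged. Its log2 fold change with standard error, its Wald score (fold change over standard error), p-value and adjusted p-value were deposited by the authors, and calls are theirs at an adjusted p under 0.05. The WT m6A list, from exomePeak2 per its file name and the labels, gives positions only. The YTHDF2 list gives a fold enrichment, a −log10 p and q (−log10 q-value) and a score per peak, as deposited by the authors; these were used only to filter that list. The submitters' processing notes name HISAT2, HOMER, ChIPseeker and mm10 without roles.

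Each mean in the table is a sum of whole counts, each times a fixed step, and the 4 steps are the means of genes with 1 read. Counts were searched that give the deposited mean to its last digit and, in a negative binomial fit at the deposited standard error, the deposited log2 fold change. A set of counts was kept where it alone gave the fold change to 2e-07, where it came far closer than the next set, or where it was the only set that gave the mean. The last rule, with no limit on the fold change for low means, holds for the transfer RNAs and other low genes. The search was tested on simulated data and recovered 26995 of 27013 genes in the table. The 18 others held 21.5% of the summed means. The mean alone left 1408 sets of counts for mt-Rnr1, 2118 for mt-Rnr2 and 11971 for mt-Co1. It left at most 6 for any other mitochondrial gene. The counts of these 3 genes therefore rest on the deposited fold change as well. Recovery at means as high as theirs was not tested separately. The size factors were 0.924 and 0.972 for numerator libraries 1 and 2, against 0.884 and 1.28 for denominator libraries 1 and 2. Which genotype a library has was not recovered. Libraries of a side are numbered by size factor only. P-values may measure technical spread alone.

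The design foresaw a count model for files with counts per library; since the file holds a comparison, the authors' Wald test was kept. limma 3.58.1 (R 4.3.3, trend, on log2 of count plus 0.5 over the size factor, over 10760 genes) was an alternative added after seeing the data. Levels per kb use RefSeq gene lengths (GRCm38.p6, the coordinates of mm10). Peaks were joined by symbol, or by position where stated. Genes of like level are nuclear genes within 2-fold of the mean.

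The 22 genes, the gene lists, the rule for named genes (every gene called, and the 2 highest and 2 lowest Wald statistics of each nuclear list) and the tests were chosen with earlier results of these data known. Intervals of counting error are not given; reads carry no molecular identifiers. No mitochondrial sequence was in the files used here, so none is printed. Unused columns of per-sample values numbered 0.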

Additional observations from a re-analysis of the deposited data

How the results depend on the processing

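The number of mitochondrial genes called between genotypes was 2 in the authors' deposited table, and 2 with no filter on the mean count, with a mean of at least 10, and after subtracting the median fold change of the 25% of genes with the highest means (a shift of 0.04, with 146 positive and 75 negative calls over all genes). It was 1 when a change of 1.5-fold was asked for (mt-Rnr2). In limma on the recovered counts of all 4 libraries it was 0, where 0.0372% of all genes were called. It also changed with the library left out, in fits with 1 library on a side. The median log2 fold change of the tested mitochondrial genes was −0.07, and −0.11 after centring, −0.16 for mRNAs alone and −0.04 over all 22 genes. Leaving out 1 library moved it between −0.61 (without numerator library 1) and 0.28 (without numerator library 2). The share of summed mean counts was 0.738%, and 0.739% to 0.814% under other totals. The count with an m6A peak was 6 by symbol and 8 by position, and the count with a YTHDF2 peak was 0 under the alternatives of symbol matching, position, −log10 q of at least 5 and fold enrichment of at least 2. Nuclear genes called were 2, against 0 in limma on all 4 libraries, and their number too changed with the library left out. The cause of these differences was not tested, beyond the fewer libraries of each fit.

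No paired analysis was possible because the recovered libraries carry no replicate number. With 2 libraries a side, a fold change between genotypes rests on 4 values. Low counts limit what can be read from the transfer RNAs and the 6 low mRNAs, which held at most 176 reads in a library.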
